A study of Mus musculus with 12 samples.

Results

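Late induction of Mixl1 was examined in 6 of the 12 bulk RNA libraries of the series, the 3 labelled D3Dox_d4 and the 3 labelled NoDox_d4. The libraries were chosen by their labels, and every counted gene entered the comparison. Both groups were embryoid bodies, floating aggregates of differentiating cells, made from mouse epiblast stem cells (EpiSCs). These cells had been derived in vitro from embryonic stem cells and carry the Mixl1DOX system, in which doxycycline turns on a FLAG-tagged Mixl1. D3Dox_d4 was given doxycycline at 1 µg/mL and collected on day 4. NoDox_d4 carried the same system, received no doxycycline and was also collected on day 4. What the 3 in D3Dox stands for is not explained in the labels, so the hours of exposure are not given here. Neither the promoter of the transgene nor the number of clones is given in the sources used here. No doxycycline-treated cells without the transgene were analysed, so effects of the drug and of Mixl1 cannot be told apart. Whether replicates were separate cultures is not stated, and p-values then measure only the spread between these libraries, which may be technical. In bulk RNA, fewer cells of a type and less RNA per cell cannot be told apart.

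Mixl1 encodes a paired-type homeodomain protein of the Mix family. It is normally transient in the primitive streak, where epiblast cells leave the epithelium to form mesoderm and endoderm, and it is best known for its part in endoderm formation. Homeodomains of this type bind short sites with a TAAT core, and a pair of them can bind an inverted repeat of that core. Embryoid bodies left to differentiate without added factors form a mixture of early neural, mesodermal and endodermal cells.

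The day 4 libraries held 24744652 to 27713836 counts, and 3 counts correspond to 0.109 to 0.122 CPM (counts scaled to library size by the TMM method of edgeR). D3Dox_d4 replicates correlated at 0.987 to 0.992 (Pearson, log2 CPM across genes), and NoDox_d4 replicates 2 and 3 at 0.99. NoDox_d4 replicate 1 stood apart, at 0.96 and 0.961, and lay over 4-fold from the mean of replicates 2 and 3 in 333 of 18109 tested genes, against 1 gene that differed as much between replicates 2 and 3. Among the 3 NoDox_d4 libraries it was the lowest in 24 of 26 pan-neuronal genes, 16 of 16 ATF4 stress response genes and 13 of 13 mitochondrial transcripts, and the highest in 28 of 31 Hox and Cdx genes and 13 of 14 fibroblast feeder genes. For that reason results are given with and without it. Pou5f1, a defining factor of epiblast, stood at 98.2, 137 and 89.8 CPM in NoDox_d4 and 62.5, 72.3 and 58.6 CPM in D3Dox_d4, and was present in all 6 libraries.

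Mixl1 (ENSMUSG00000026497.7, GRCm38 chromosome 1, 180693043 to 180697034, minus strand) was measured first, as a check of the labels. It stood at 1.62, 1.83 and 1.11 CPM in NoDox_d4 replicates 1 to 3 and at 478, 418 and 449.6 CPM in D3Dox_d4. All 3 doxycycline libraries were high and all 3 controls were low, though above the floor. The rise was 8.20 ± 1.57 on the log2 scale (± SE, edgeR adjusted p = 0.00311), and 8.25 without NoDox_d4 replicate 1 (adjusted p = 0.00951). An exact two-sided permutation test of the CPM values gave p = 0.1, the smallest that 3 against 3 allows. The SE takes in the spread of all 12 libraries. In the library labelled NoDox_d2 replicate 1, Mixl1 reached 91 CPM, where the other NoDox_d2 libraries held 0.593 and 1.15, and it enters the estimate of the spread. Without it the same rise was 8.20 ± 0.20 (adjusted p = 4.51e-10). A count cannot tell the transgene from the endogenous gene.

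Of 18109 genes tested, 2424 rose (13.4%) and 1839 fell (10.2%) in D3Dox_d4 at an adjusted p under 0.05 in edgeR, 4263 in all (23.5%). Under upper-quartile scaling the balance of the counts turned, with 2185 up and 2227 down. Rises were larger than falls. At least 2-fold changes numbered 1357 upward and 455 downward, and at least 16-fold changes 149 upward and 28 downward, while 1284 called genes changed by less than 1.5-fold. Without NoDox_d4 replicate 1, 2475 genes rose (13.2%) and 1811 fell (9.63%) among 18805 tested. Of the 4263 called genes, 3490 were called there too, and none of the 4263 was called in the opposite direction. Another 748 of the 18109 genes were called only there. A stricter count is used for the gene groups: 1559 genes rose (8.61%) and 854 fell (4.72%) in all 7 fits, the fit of all libraries and the 6 fits that each left out 1 of the libraries compared. The total was 2756 without D3Dox_d4 replicate 3. It was 5554 without NoDox_d2 replicate 1, with 3096 genes up and 2458 down.

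**Figure D1:**
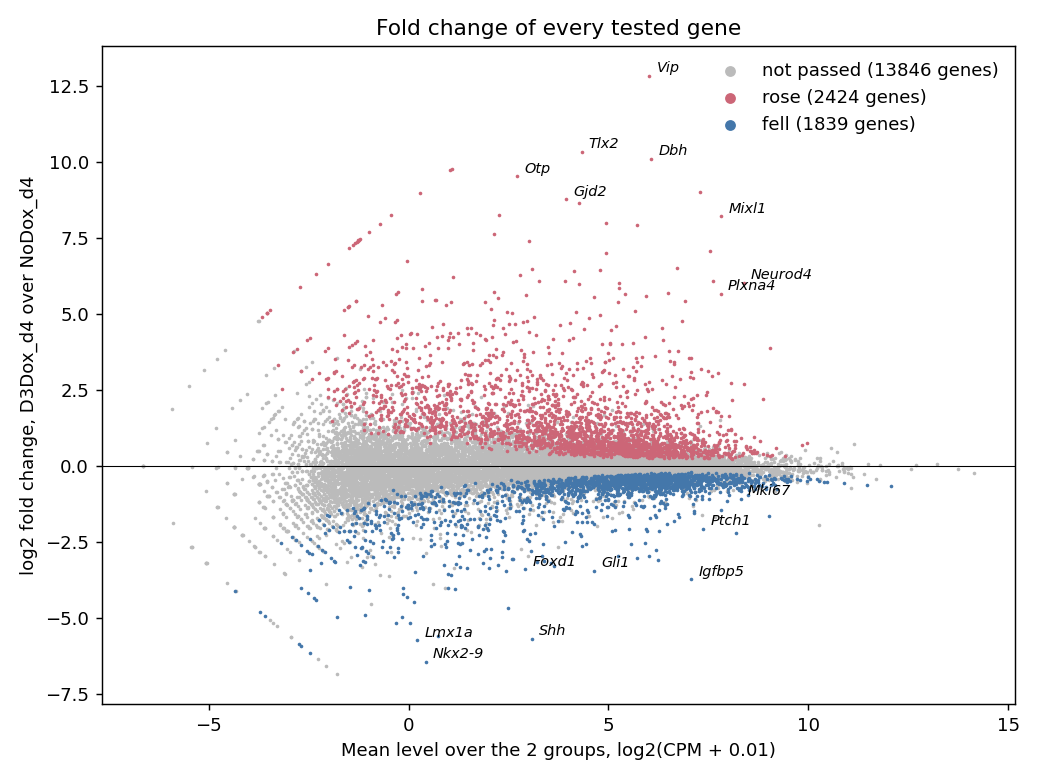
Each point is 1 of 18109 tested genes, with the mean level of both groups on the x axis (log2 of CPM + 0.01) and the log2 fold change of D3Dox_d4 over NoDox_d4 on the y axis. Red marks the 2424 genes that rose and blue the 1839 that fell, and the rises of Vip, Tlx2 and Dbh reach further from 0 than any fall of a named gene.

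The largest rises were in genes of neurons. Vip encodes vasoactive intestinal peptide, a neuropeptide of autonomic and enteric neurons, and had 1 count over the 3 NoDox_d4 libraries against 129.5, 124 and 138 CPM in D3Dox_d4. That is a ratio of 9880, with a 95% interval of 1770 to 390000 that covers counting error only. Tlx2, a homeobox gene of enteric and autonomic neurons, had 2 counts in NoDox_d4 and 42, 35.1 and 43.3 CPM in D3Dox_d4 (ratio 1520, 421 to 12600). Vip and Tlx2 were thus all but confined to the doxycycline libraries of this comparison. Dbh encodes dopamine beta-hydroxylase, which makes noradrenaline from dopamine, and went from 0.118, 0.0813 and 0.154 CPM to 120.4, 135 and 147 CPM (10.09 ± 0.21, adjusted p = 1.11e-10). Otp, a homeobox gene of hypothalamic neuroendocrine neurons, had 1 count in NoDox_d4 and 11.8, 12.4 and 15.3 CPM in D3Dox_d4 (ratio 995, 178 to 39400). Htr3b, a subunit of the ionotropic serotonin receptor, had 2 counts and 8.93, 9.07 and 10.6 CPM (ratio 361, 99.7 to 2990). Htr3b and Otp likewise went from the floor to a clear level in all 3 doxycycline libraries. Also among the 10 highest by the naming rule were the neuronal gap junction gene Gjd2 (8.76 ± 0.57), the cadherin gene Cdh12 (8.62 ± 0.40), the homeobox gene Hmx2 (7.97 ± 0.42) and Tnr, which encodes the matrix protein tenascin-R (7.90 ± 0.46). In each of these the lowest doxycycline library lay above the highest control, as the naming rule required. Without NoDox_d4 replicate 3, which held 4 of the 5 counts of Gjd2 in NoDox_d4, the fitted rise was 10.26 and rests on 1 control count.

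The 250 bases upstream of the annotated start are shown for 4 of these genes, as the sequences next to the start of genes that went from the floor to a clear level. They come from RefSeq on GRCm38.p6 and are written 5′ to 3′ on the strand of the gene, with each TAAT core, on either strand (TAAT or ATTA), in capitals. The regions are chr10:5638968-5639217 on the plus strand for Vip, chr2:27165257-27165506 plus for Dbh, chr13:94875386-94875635 plus for Otp and chr9:48964991-48965240 minus for Htr3b.
Vip: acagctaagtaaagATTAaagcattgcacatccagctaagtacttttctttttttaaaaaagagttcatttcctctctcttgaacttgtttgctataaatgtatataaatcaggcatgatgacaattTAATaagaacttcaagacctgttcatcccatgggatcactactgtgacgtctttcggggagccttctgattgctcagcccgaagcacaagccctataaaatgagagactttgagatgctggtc
Dbh: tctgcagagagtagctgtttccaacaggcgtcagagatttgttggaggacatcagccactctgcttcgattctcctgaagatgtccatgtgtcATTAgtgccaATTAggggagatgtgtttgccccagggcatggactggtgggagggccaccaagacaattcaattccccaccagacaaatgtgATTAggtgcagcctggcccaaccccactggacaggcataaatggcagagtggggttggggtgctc
Otp: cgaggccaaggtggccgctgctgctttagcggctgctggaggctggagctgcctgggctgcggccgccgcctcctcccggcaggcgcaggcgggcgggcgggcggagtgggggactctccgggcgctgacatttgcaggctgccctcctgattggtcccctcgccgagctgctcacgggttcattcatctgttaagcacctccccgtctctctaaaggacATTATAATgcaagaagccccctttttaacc
Htr3b: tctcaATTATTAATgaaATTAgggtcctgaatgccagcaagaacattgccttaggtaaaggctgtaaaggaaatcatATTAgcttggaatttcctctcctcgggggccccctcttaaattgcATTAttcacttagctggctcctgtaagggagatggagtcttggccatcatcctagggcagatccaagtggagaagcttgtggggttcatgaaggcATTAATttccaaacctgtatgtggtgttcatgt

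The stretches hold 2, 3, 2 and 8 cores, counting overlaps, and the inverted repeat TAATNNNATTA, which reads the same on both strands, occurs once, in Htr3b. Of 12272 tested genes with a promoter in the table, 9.17% had 3 or more cores in the 250 bases, against 9.31% of 1794 genes that rose and 9.18% of 1384 that fell. TAATNNNATTA occurred in 0.244% of all (30 genes), 0.167% of those that rose and 0.289% of those that fell. TAATNNATTA occurred in 0.187%, 0.0557% and 0.434%, and TAATTA in 3.16%, 2.90% and 4.26%. These shares describe letters in this window and were not tested.

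Most genes of the noradrenergic and autonomic list rose. Autonomic neurons arise from neural crest, and those of the noradrenergic kind express Dbh and tyrosine hydroxylase. Of 22 noradrenergic and autonomic genes tested, 14 rose (63.6%), 12 of them in all 7 fits, and 1 fell (4.55%). The shares over all tested genes were 13.4% and 10.2%. Without NoDox_d4 replicate 1, 16 rose and 2 fell. The list's median log2 fold change was 1.98, and 2.21 without that library, where the median over all genes tested was −0.03 and −0.02. Besides Tlx2 and Dbh, the genes of this group given next were chosen for their role with their values known, outside the naming rule. Phox2a, a homeobox gene of noradrenergic and other autonomic neurons, went from 2.29, 8.01 and 6.69 to 95.7, 88.3 and 93.5 CPM (4.03 ± 0.49, adjusted p = 1.72e-04). The levels in D3Dox_d4 were far above those in any control, and the lowest control was the library that stood apart. Ret, the receptor for GDNF family ligands on enteric and sympathetic neurons, went from 13.8, 10.3 and 13.3 to 74.6, 93.8 and 93.9 CPM (2.81 ± 0.26). Chrna3 and Chrnb4, the subunits of the ganglionic nicotinic receptor, rose by 3.54 ± 0.44 and 3.25 ± 0.26. The vesicular monoamine transporter gene Slc18a2 rose by 1.66 ± 0.27, the intermediate filament gene Prph, typical of peripheral neurons, by 2.30 ± 0.20, and the transcription factor gene Gata2 by 2.84 ± 0.38. In all of these the groups did not overlap, which was so in 7361 of all 18109 tested genes (40.6%).

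Not every gene of the noradrenergic programme followed. Th encodes tyrosine hydroxylase, the first enzyme of catecholamine synthesis, and stood at 0.118, 2.72 and 1.11 CPM in NoDox_d4 and 2.78, 4.79 and 3.7 CPM in D3Dox_d4, and did not pass (1.51 ± 0.66, adjusted p = 0.121), although it did without NoDox_d4 replicate 2 (2.59, adjusted p = 0.0196). Its lowest doxycycline library lay just above its highest control. Ddc, the next enzyme, stood at 9.11, 14.2 and 15.3 and 11.2, 11.7 and 11.8 CPM (−0.15 ± 0.42, adjusted p = 0.831), and the noradrenaline transporter gene Slc6a2 had a difference of 1.54 ± 0.64, adjusted p = 0.105. Dbh was thus called with all libraries where the enzymes that act before it were not. Hand2, a bHLH gene of sympathetic and limb cells, stood at 2.52, 0.163 and 0.192 CPM in NoDox_d4 and 2.02, 1.51 and 1.59 CPM in D3Dox_d4. Its difference was 0.83 ± 0.85, adjusted p = 0.527, and it rose without NoDox_d4 replicate 1 (3.23, adjusted p = 0.00583). The list's only called fall was Tlx3 (−1.34 ± 0.45, adjusted p = 0.0496), which did not pass in the 5 fits that each left out another library than NoDox_d4 replicate 1 (adjusted p 0.117 to 0.140).

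**Figure D2:**
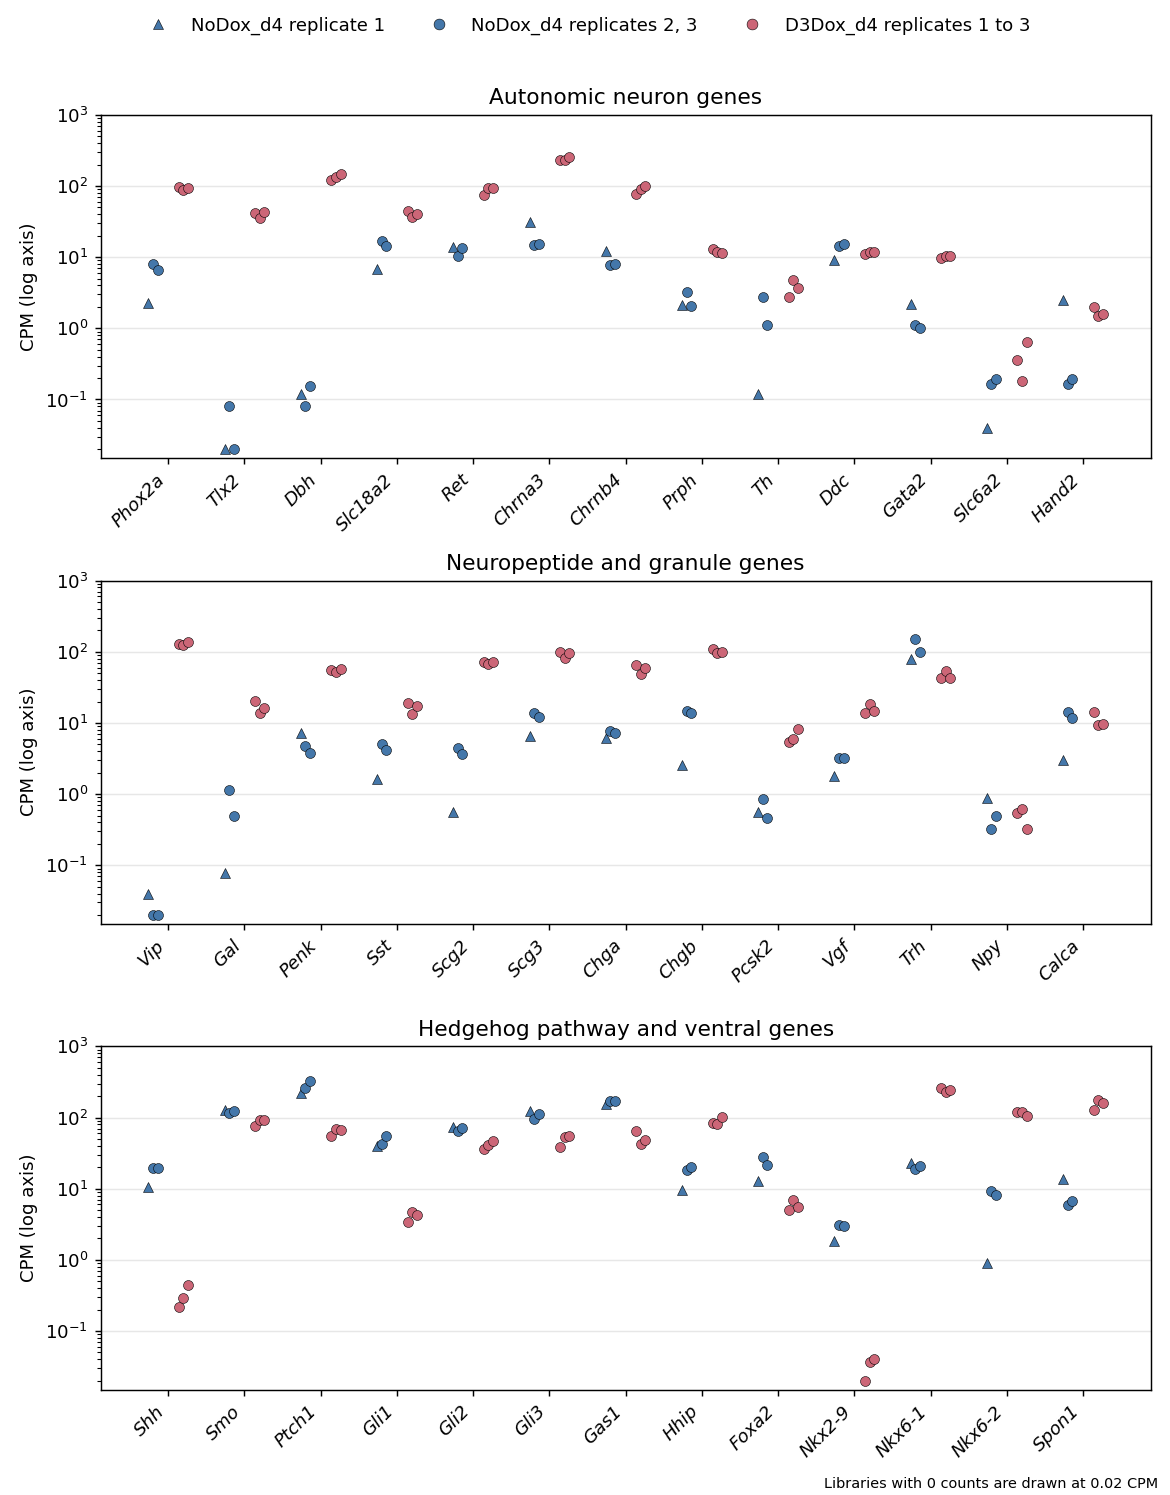
CPM on a log axis for 13 genes each of the autonomic neuron, neuropeptide and Hedgehog or ventral groups in the 6 libraries, blue for NoDox_d4 with replicate 1 as a triangle and red for D3Dox_d4. Vip, Tlx2 and Dbh sit near the floor in blue and between 35.1 and 147 CPM in red, the groups of Th nearly touch and those of Ddc overlap, and Shh runs the other way, at 10.4 to 19.8 CPM in blue and 0.217 to 0.438 in red.

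Genes of neuropeptides and of the machinery that packs them into dense-core granules gave more rises than falls. Of 26 such genes, 17 rose (65.4%) and 1 fell (3.85%), against 13.4% and 10.2% of all tested genes. In all 7 fits, 12 rose and 1 fell. Without NoDox_d4 replicate 1, 15 rose and 2 fell, with a median of 1.77 against 1.78 with it. Besides Vip, Gal, which encodes galanin, went from 0.0789, 1.14 and 0.5 to 20.5, 13.9 and 16.4 CPM (4.88 ± 0.76, adjusted p = 8.64e-04, and 5.84 without NoDox_d4 replicate 2). Scg2, a granin that gives rise to secretoneurin, went from 0.552, 4.43 and 3.61 to 71.2, 67.7 and 70.7 CPM (4.61 ± 0.53, adjusted p = 1.10e-04). Other granins, named here with their values known, moved the same way, with rises of 3.05 ± 0.19 for Chga, 3.29 ± 0.58 for Chgb and 3.11 ± 0.28 for Scg3. The enkephalin precursor gene Penk went from 7.14, 4.68 and 3.8 to 55, 52.5 and 56.6 CPM (3.39 ± 0.35) and the convertase gene Pcsk2, which cuts propeptides, rose by 3.37 ± 0.40. The rises covered peptides, granule proteins and processing enzymes alike. Trh, the precursor of thyrotropin-releasing hormone and also a gene of early anterior endoderm, fell from 78.1, 153 and 98.9 to 42.5, 54.5 and 42.4 CPM (−1.24 ± 0.26, adjusted p = 0.00469). Calca and Npy, sensory and sympathetic peptides outside the naming rule, had differences of 0.18 ± 0.60, adjusted p = 0.863 and −0.18 ± 0.79, adjusted p = 0.899.

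Most general neuronal genes rose. Of 26 pan-neuronal genes, 21 rose (80.8%, against 13.4% of all tested genes) and the others did not pass. In all 7 fits 18 rose, and 22 rose without NoDox_d4 replicate 1. The median was 1.90 with that library and 1.57 without it, and the summed level of the list was 327 CPM in NoDox_d4 replicate 1, at most 996 in the other controls and 2706 to 3021 in D3Dox_d4. Myt1l, a zinc finger factor that holds the neuronal state, went from 0.907, 1.71 and 2.19 to 15.9, 23.9 and 23.4 CPM (3.71 ± 0.47, adjusted p = 2.12e-04). Celf3, a neuronal splicing factor, went from 5.32, 18.8 and 23 to 155, 173 and 187 CPM (3.45 ± 0.44, adjusted p = 2.17e-04), and the synaptotagmin gene Syt4 from 0.828, 2.56 and 1.27 to 17.6, 9.96 and 14.1 CPM (3.16 ± 0.42, adjusted p = 3.13e-04). For all 3 the controls already held some signal and the doxycycline libraries several times more. The neuronal tubulin gene Tubb3, outside the naming rule, went from 36, 139 and 121 to 500.0, 388 and 442 CPM (2.17 ± 0.41, or 1.77 without NoDox_d4 replicate 1).

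Of 33 voltage-gated and gap junction channel genes, 17 rose (51.5%) and 2 fell (6.06%), against 13.4% and 10.2% of all tested genes. The counts were 16 and 1 in all 7 fits, and 17 and 2 without NoDox_d4 replicate 1. With Gjd2 rose the A-type potassium channel gene Kcnd2 (4.33 ± 0.62, or 5.11 without NoDox_d4 replicate 1), under 4 CPM in every library. Gja1, the gap junction gene of progenitors and many epithelia, fell from 558, 350.0 and 367 to 281, 266 and 278 CPM (−0.63 ± 0.15, adjusted p = 0.00955, or −0.38 without NoDox_d4 replicate 1). The neuronal connexin gene Gjd2 and Gja1 thus moved in opposite directions. Of 29 neurotransmitter receptor genes, 16 rose (55.2%), 14 of them in all 7 fits, and 17 rose and 1 fell without NoDox_d4 replicate 1. With Htr3b rose its partner subunit gene Htr3a, from 1.66, 1.75 and 1.84 to 70.8, 72.8 and 75.9 CPM (5.38 ± 0.59, adjusted p = 8.05e-05), and the NMDA receptor subunit gene Grin3a, from 0.947, 0.407 and 0.423 to 30.4, 36.7 and 45.2 CPM (5.97 ± 0.60, adjusted p = 4.25e-05). The controls of Htr3a were narrow and those of Grin3a less so, and in both genes the doxycycline libraries lay well clear of them. Without NoDox_d4 replicate 1 the rise of Grin3a was 6.48.

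Neuronal transcription factor genes gave more rises than falls. Of 22 hypothalamic, LIM and sensory homeobox genes, 11 rose (50%) and 1 fell (4.55%), against 13.4% and 10.2% of all tested genes. The counts were 9 and 1 in all 7 fits, and 11 and 1 without NoDox_d4 replicate 1. Hmx2 and Hmx3, neighbouring genes of inner ear and hypothalamus, went from 0.0394, 0.285 and 0.384 to 63.3, 55 and 63.4 CPM and from 0.276, 0.203 and 0.346 to 17.5, 18.4 and 20.5 CPM (6.07 ± 0.34 for Hmx3). Both were near the floor without doxycycline. Lmx1a, a LIM homeobox gene of roof plate and midbrain dopaminergic progenitors, fell from 1.66, 2.52 and 2.61 CPM to 3 counts over D3Dox_d4 (ratio 0.0166, 0.00339 to 0.0493). Of 14 proneural and Olig bHLH and Ebf genes, 6 rose (42.9%) and 2 fell (14.3%). In all 7 fits 5 rose and 2 fell, and 5 and 3 without NoDox_d4 replicate 1. Neurod4, a neuronal differentiation gene, went from 6.71, 13.2 and 10.6 to 665, 599 and 710.3 CPM (6.01 ± 0.62, adjusted p = 5.42e-05). Bhlhe22, expressed in postmitotic neurons, went from 2.76, 2.44 and 2.38 to 136, 114 and 114 CPM (5.58 ± 0.38, adjusted p = 2.50e-06), and Neurod1 rose by 3.04 ± 0.48. Differentiation bHLH genes were thus high in all 3 doxycycline libraries. Olig3, of dorsal neural progenitors, fell from 10.7, 20.6 and 24.6 to 2.1, 2.51 and 1.67 CPM (−3.15 ± 0.59, adjusted p = 0.00255), and Olig2, of motor neuron progenitors, from 10.9, 2.48 and 4.19 to 0.542, 0.664 and 1.15 CPM (−2.89 ± 0.61, adjusted p = 0.00552, or −2.08 without NoDox_d4 replicate 1).

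Axon guidance genes were mixed, with 20% up and 12.5% down against 13.4% and 10.2% of all tested genes. Of 40 tested, 8 rose and 5 fell, 7 and 4 in all 7 fits, and 15 and 6 without NoDox_d4 replicate 1. Plxna4, a semaphorin receptor of sensory and sympathetic axons, went from 5.21, 10.4 and 10.5 to 307, 487 and 527 CPM (5.66 ± 0.39, adjusted p = 2.60e-06). The netrin receptor gene Unc5d rose by 4.01 ± 0.47 and the Slit receptor gene Robo2 by 2.20 ± 0.14. Receptors led the rises, while the semaphorin ligand genes Sema3c (−1.84 ± 0.25) and Sema3d (−2.06 ± 0.41) and the commissural receptor gene Robo3 (−2.57 ± 0.62) fell. The groups of Robo3 overlapped, with NoDox_d4 replicate 1 at 3.55 CPM and D3Dox_d4 at 1.48 to 4.06 CPM. Of 23 cadherin and protocadherin genes, 8 rose and 4 fell, 6 and 2 in all 7 fits, and 8 and 3 without NoDox_d4 replicate 1. After Cdh12, Pcdh9 (4.32 ± 0.59) and Cdh10 (2.76 ± 0.13), both of neurons, rose most. Pcdh8, the paraxial protocadherin, fell from 21.2, 191 and 189.8 to 17.1, 15.4 and 14.7 CPM (−3.09 ± 0.74, adjusted p = 0.0111), with NoDox_d4 replicate 1 closest to the doxycycline libraries. E-cadherin, encoded by Cdh1, fell from 36.8, 34.1 and 29.7 to 9.18, 13.9 and 12.1 CPM (−1.51 ± 0.25, adjusted p = 0.00123).

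Genes of neural progenitors gave calls in both directions, with 18.5% up and 7.41% down against 13.4% and 10.2% of all tested genes. Of 27 progenitor and patterning genes, 5 rose and 2 fell, 4 and 1 in all 7 fits. NoDox_d4 replicate 1 was the lowest control in 20 of the 27, and without it 6 rose and 10 fell, with a median of −0.99 against −0.65. Sox3, of epiblast and neural progenitors, fell from 49.3, 58.3 and 67.5 to 15.9, 11.8 and 12.6 CPM (−2.12 ± 0.17, adjusted p = 6.92e-06). Pax8, of midbrain-hindbrain, ear and kidney, went from 1.06, 0.244 and 0.269 to 11.8, 15.1 and 15.5 CPM (4.73 ± 0.54, adjusted p = 1.13e-04, or 5.75 without NoDox_d4 replicate 1), and the hindbrain border gene Gbx2 from 33, 17.2 and 19.1 to 105, 89.9 and 102 CPM (2.10 ± 0.22, adjusted p = 6.28e-05). Otx1, under 1 CPM in every library, rose by 2.57 ± 0.50. Among the falls called only without NoDox_d4 replicate 1 was Sox1, a general neural progenitor gene outside the naming rule (−1.64 ± 0.61, adjusted p = 0.0741, and −2.05, adjusted p = 0.0186, without it).

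Neural crest and placode markers are those of the other ectodermal sources of peripheral neurons. Of 17 neural crest genes, 2 rose, both in all 7 fits, a share of 11.8% against 13.4% of all tested genes. Without NoDox_d4 replicate 1, 5 rose and 3 fell. Foxd3, of epiblast and premigratory crest, went from 0.316, 1.18 and 0.692 to 5.75, 6.38 and 5.37 CPM (3.0 ± 0.43, adjusted p = 5.51e-04), and Sox10, of migratory crest and glia, from 1.93, 2.93 and 3.23 to 6.07, 9.11 and 9.75 CPM (1.62 ± 0.38, adjusted p = 0.00943). The list's summed level was 454 to 572 CPM in NoDox_d4 and 355 to 399.7 CPM in D3Dox_d4, below every control. Of 15 placode and surface ectoderm genes, 5 rose (33.3%) and 4 fell (26.7%), against 13.4% and 10.2% of all tested genes. The counts were 4 and 1 in all 7 fits, and 6 and 2 without NoDox_d4 replicate 1. The placode cofactor gene Eya2 went from 10.2, 22.4 and 21.4 to 174, 180.1 and 188 CPM (3.33 ± 0.33, adjusted p = 3.43e-05), while Foxi3, a placode competence factor, fell (−3.0 ± 0.68, adjusted p = 0.008) at under 1.1 CPM in every library. Its value was −2.41 without D3Dox_d4 replicate 1 and −5.36 without D3Dox_d4 replicate 3, a fitted value that rests on 1 count in that group.

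**Figure D3:**
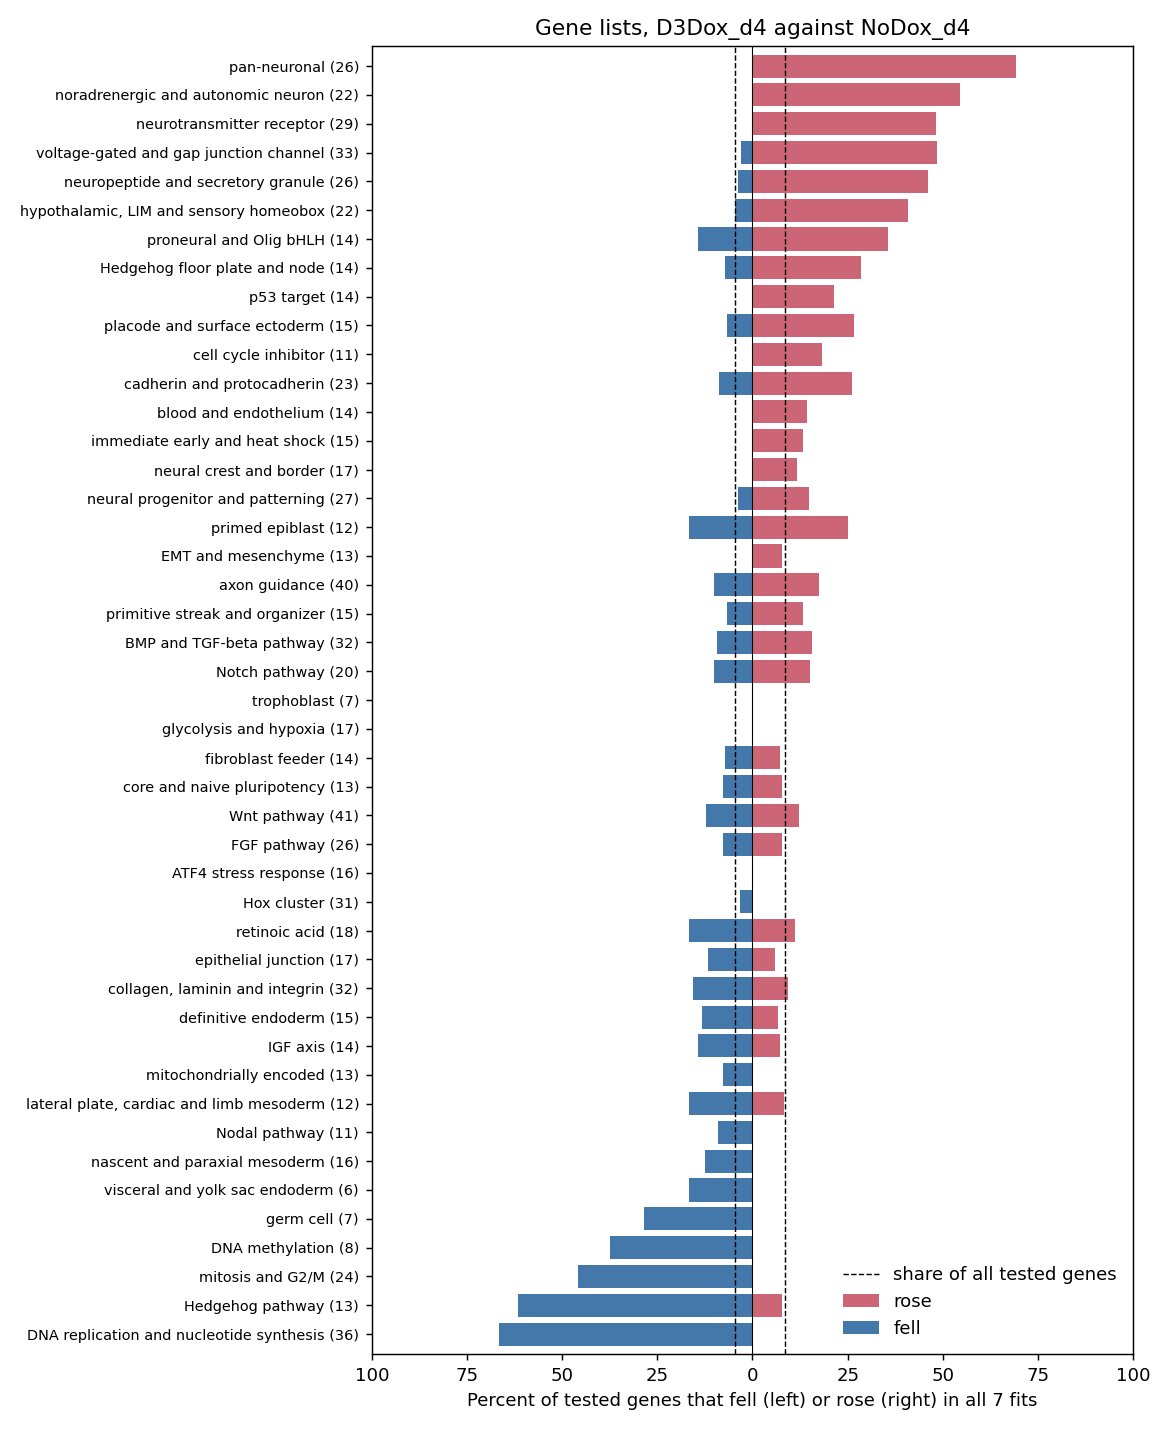
For each of the 45 gene lists, with the number of genes tested in brackets, the bar to the right is the percent that rose and the bar to the left the percent that fell in all 7 fits. Dashed lines mark 8.61% and 4.72%, the shares of all tested genes, and neuronal lists stand at the top and the replication list, with 24 of 36 genes down, at the bottom.

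Hedgehog signalling genes fell from ligand to transcription factor. In this pathway the ligand Shh binds Ptch1, which frees Smo to activate Gli proteins, and Gli1, Ptch1 and Hhip are themselves turned on by the signal. Of 13 pathway genes, 9 fell (69.2%) and 2 rose (15.4%), against 10.2% and 13.4% of all tested genes. In all 7 fits 8 fell and 1 rose, and 9 and 2 without NoDox_d4 replicate 1. Shh went from 10.4, 19.8 and 19.4 to 0.217, 0.295 and 0.438 CPM (−5.70 ± 0.60, adjusted p = 6.00e-05), with every doxycycline library under 1 CPM. Ptch1, the receptor and target, went from 219, 258 and 323 to 54.8, 68.1 and 66.8 CPM (−2.08 ± 0.20, adjusted p = 2.82e-05). Gli1, the target that amplifies the signal, went from 39.6, 41.8 and 55.6 to 3.4, 4.68 and 4.3 CPM (−3.47 ± 0.40, adjusted p = 1.20e-04). In all 3 the groups did not overlap, as in 40.6% of all tested genes, and the naming rule required this of Shh and Gli1. Further members are named for their place in the pathway. The co-receptor gene Gas1 fell (−1.68 ± 0.25), Gli3 (−1.18 ± 0.15), Gli2 (−0.75 ± 0.14), Smo (−0.51 ± 0.11) and the inhibitor gene Sufu (−0.47 ± 0.11), in all 7 fits. Hhip, which binds and traps the ligand, moved the other way, from 9.62, 18.1 and 20.2 to 83.2, 81.6 and 101 CPM (2.47 ± 0.22, adjusted p = 1.99e-05). The targets Gli1 and Ptch1 thus fell while Hhip rose. The co-receptor gene Cdon (adjusted p = 0.0328) fell and the ligand release gene Disp1 (adjusted p = 0.0303) rose in the fit of all libraries, and both calls were lost on leaving out some libraries. Boc, a co-receptor gene, did not pass (0.48 ± 0.40, adjusted p = 0.429).

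Ventral neural genes that Hedgehog normally induces did not all follow the ligand. Of 14 floor plate and node genes, 4 rose, all in every fit, and 4 fell, 1 in every fit. Each share was 28.6%, against 13.4% up and 10.2% down over all tested genes. Without NoDox_d4 replicate 1 they numbered 4 and 5. Nkx6-2 went from 0.907, 9.35 and 8.07 to 118, 118 and 106 CPM (4.22 ± 0.55, adjusted p = 2.57e-04) and Spon1, which encodes the floor plate protein F-spondin, from 13.9, 5.98 and 6.72 to 129, 177 and 160.0 CPM (4.13 ± 0.28, adjusted p = 2.60e-06). Nkx6-1, of ventral progenitors and named outside the rule, went from 22.9, 19 and 21.1 to 263, 228 and 247 CPM (3.55 ± 0.41). Nkx2-9, the floor plate neighbour gene, fell from 1.81, 3.13 and 2.96 CPM to 2 counts over D3Dox_d4 (ratio 0.00951, 0.00114 to 0.0348). Foxa2, of floor plate and endoderm, fell from 12.6, 28.1 and 21.6 to 4.99, 6.97 and 5.61 CPM (−1.82 ± 0.46, adjusted p = 0.0136), a call lost without D3Dox_d4 replicate 1 or 3.

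In the Notch pathway, 5 of 20 genes rose (25%) and 3 fell (15%), against 13.4% and 10.2% of all tested genes. The counts were 3 and 2 in all 7 fits, and 4 and 4 without NoDox_d4 replicate 1. The ligand gene Jag1 (1.22 ± 0.16), the receptor-modifying enzyme gene Mfng (2.24 ± 0.39) and the target gene Hey1 (2.13 ± 0.22) rose. The receptor gene Notch2 fell from 106, 89.6 and 106 to 32.8, 42.9 and 44 CPM (−1.33 ± 0.14, adjusted p = 4.87e-05), and Hes3, a bHLH repressor of neural progenitors, from 33.2, 16.8 and 17.3 to 2.24, 1.88 and 2.63 CPM (−3.32 ± 0.36, adjusted p = 7.49e-05). Of 18 retinoic acid genes, 2 rose and 6 fell, 2 and 3 in all 7 fits, and 3 and 7 without NoDox_d4 replicate 1. The receptor genes Rxrg (1.69 ± 0.39) and Rara (0.75 ± 0.10) rose. The synthesis gene Rdh10 (−1.37 ± 0.24), the retinaldehyde reductase gene Dhrs3 (−3.0 ± 0.64, or −1.56 without NoDox_d4 replicate 1) and the degrading enzyme gene Cyp26a1 (−2.80 ± 0.52, or −2.13 without it) fell, so synthesis and breakdown genes were both lower.

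Of 41 Wnt pathway genes, 6 rose (14.6%) and 8 fell (19.5%), against 13.4% and 10.2% of all tested genes. The counts were 5 and 5 in all 7 fits, and 6 and 7 without NoDox_d4 replicate 1. Among ligands, Wnt8a of the primitive streak fell from 52.1, 57.9 and 57.4 to 11.4, 13.6 and 12.8 CPM (−2.14 ± 0.14, adjusted p = 2.24e-06) and Wnt4 (−1.64 ± 0.22). The receptor gene Fzd8 fell (−0.82 ± 0.16), while Lgr5, the R-spondin receptor gene, rose (1.99 ± 0.30). The secreted inhibitor gene Dkk1 rose from 9.7, 8.13 and 7.53 to 31.2, 34.7 and 29.5 CPM (1.91 ± 0.17, adjusted p = 1.86e-05) and Dkk3 by 1.38 ± 0.13. Of 26 FGF pathway genes, 5 rose and 5 fell (19.2% each), 2 and 2 in all 7 fits, and 5 and 5 without NoDox_d4 replicate 1. Fgf13, an intracellular FGF homologue that binds sodium channels, rose (1.92 ± 0.23), as did the receptor gene Fgfr4 (1.43 ± 0.34). The feedback inhibitor genes Spry1 (−0.99 ± 0.17) and Spred1 (−0.52 ± 0.09) fell.

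Of 32 BMP and TGF-beta pathway genes, 7 rose and 7 fell (21.9% each), against 13.4% and 10.2% of all tested genes. The counts were 5 and 3 in all 7 fits, and 9 and 7 without NoDox_d4 replicate 1. The BMP regulator gene Bmper (2.79 ± 0.51, or 3.40 without NoDox_d4 replicate 1), the ligand gene Tgfb3 (1.79 ± 0.37, or 2.46 without it) and the target gene Id4 (2.10 ± 0.33) rose. The ligand gene Gdf10 (−2.81 ± 0.37) and the latency protein gene Ltbp1 (−0.57 ± 0.13) fell. Bmp4, the ligand that drives autonomic fate in the embryo and outside the naming rule, did not pass (−0.60 ± 0.48, adjusted p = 0.404). In the Nodal pathway the signal transducer gene Smad3, from 131, 114 and 129 to 61.2, 70.0 and 80.6 CPM (−0.82 ± 0.14, adjusted p = 0.00123), was alone of 11 genes in being called in all 7 fits. The ligand gene Nodal did not pass (−0.41 ± 0.36, adjusted p = 0.451). With all libraries 1 gene of that pathway rose and 1 fell, and 2 rose and 1 fell without NoDox_d4 replicate 1.

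DNA replication and mitosis genes were lower by modest amounts. Of 36 replication and nucleotide synthesis genes, 29 fell (80.6%, against 10.2% of all tested genes) and the others did not pass. In all 7 fits 24 fell, and 27 without NoDox_d4 replicate 1, with a median of −0.65 (−0.55 without it). Tyms, which makes thymidylate, fell from 108, 89.8 and 77.8 to 50.0, 41.5 and 44.9 CPM (−1.02 ± 0.17, adjusted p = 0.00114). Mcm5, of the replicative helicase, fell from 398, 326 and 298 to 175, 178 and 175 CPM (−0.95 ± 0.11, adjusted p = 8.89e-05), and Pole, of the leading-strand polymerase, (−0.95 ± 0.19). The groups did not overlap in these, as in 40.6% of all tested genes, though each stayed well expressed. Of 24 mitosis genes, 16 fell (66.7%), 11 of them in all 7 fits, and 16 without NoDox_d4 replicate 1. Mki67, a marker of cycling cells, fell from 467, 366 and 459 to 147, 231 and 228 CPM (−1.09 ± 0.17, adjusted p = 8.41e-04), the kinesin gene Kif23 (−0.84 ± 0.10) and the centromere protein gene Cenpf (−0.83 ± 0.13). Of 11 cell cycle inhibitor genes, 4 rose (36.4%, against 13.4% of all tested genes). The 2 that did so in all 7 fits and without NoDox_d4 replicate 1 were the CDK inhibitor genes Cdkn1c and Cdkn2d (1.00 ± 0.20). Cdkn1c went from 164, 158 and 146 to 414, 306 and 333 CPM (1.17 ± 0.19, adjusted p = 0.00104). Of 8 DNA methylation genes, 3 fell (37.5%), each in all 7 fits. They were the de novo methyltransferase gene Dnmt3b (−0.97 ± 0.13), the maintenance methyltransferase gene Dnmt1 (−0.79 ± 0.13) and its cofactor gene Uhrf1 (−0.50 ± 0.09). Uhrf1 is also on the replication list.

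**Figure D4:**
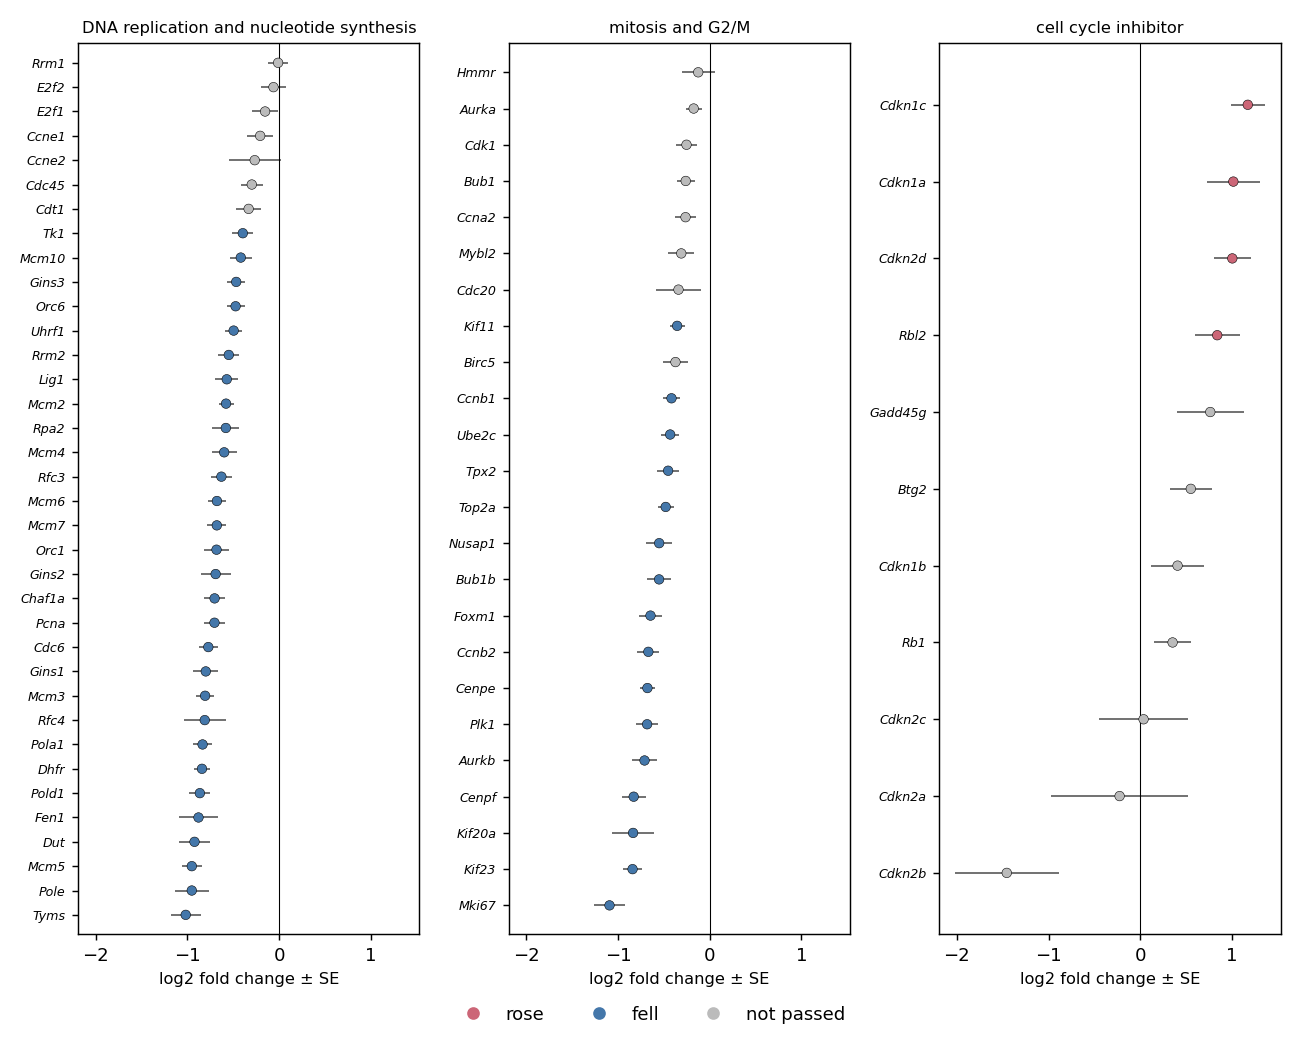
Log2 fold change of D3Dox_d4 over NoDox_d4 with its SE for every tested gene of the replication, mitosis and cell cycle inhibitor lists, red where it rose, blue where it fell and grey where it did not pass. All 36 replication genes lie at or below 0, down to −1.02 ± 0.17 for Tyms, and the 4 inhibitors that rose lie near 1.

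Pluripotency and streak genes gave calls in both directions, as did all tested genes, of which 13.4% rose and 10.2% fell. Of 13 core and naive pluripotency genes, 1 rose and 2 fell. Nanog fell in all 7 fits, from 28.6, 73.6 and 40.1 to 13.9, 19.1 and 12 CPM (−1.66 ± 0.31, adjusted p = 0.00249), and Esrrb, a naive-state factor, rose, from 3.67, 3.17 and 3.04 to 8.24, 9.03 and 9.83 CPM (1.46 ± 0.16, adjusted p = 1.01e-04). Pou5f1 also fell (−0.75 ± 0.21, adjusted p = 0.0245), a call lost without D3Dox_d4 replicate 1 or 3 or NoDox_d4 replicate 2. Leaving out NoDox_d4 replicate 1, 3 of the list rose and 2 fell. Of 12 primed epiblast genes, 3 rose and 3 fell, 3 and 2 in all 7 fits, and 4 and 4 without NoDox_d4 replicate 1. The POU factor gene Pou3f1 (1.52 ± 0.22), which also serves neural cells, and the neuronal maturation factor gene Sox4 (0.80 ± 0.12) rose with Foxd3, and Sox3 and Dnmt3b fell. Of 15 streak and organizer genes, 2 rose and 3 fell. Gsc, the organizer homeobox gene, rose with Mixl1, from 0.434, 2.36 and 0.845 to 35.1, 31.1 and 27.9 CPM (4.69 ± 0.47, adjusted p = 3.81e-05, and 5.60 without NoDox_d4 replicate 2), and Wnt8a fell, in all 7 fits. T, the brachyury gene and outside the naming rule, fell from 88.8, 116 and 76.2 to 7.34, 17.3 and 9.99 CPM (−3.02 ± 0.80, adjusted p = 0.0174), a call lost without D3Dox_d4 replicate 1 or 3. Without NoDox_d4 replicate 1, 2 streak genes rose and 3 fell.

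Genes of the germ layers with which Mixl1 is associated gave calls in both directions, as did all tested genes (13.4% rose and 10.2% fell). Counts of 4 of the 5 lists changed without NoDox_d4 replicate 1. Of 15 definitive endoderm genes, 3 rose and 5 fell with all libraries. Ripply3 rose (1.67 ± 0.32) and Cldn6 (−1.90 ± 0.33) and Trh fell in all 7 fits, and 3 rose and 3 fell without NoDox_d4 replicate 1. Sox17, the endoderm-specifying factor outside the naming rule, stood at 1.77, 0.528 and 0.154 CPM in NoDox_d4 and 0.904, 0.848 and 0.517 CPM in D3Dox_d4 (−0.11 ± 0.97, adjusted p = 0.954). Of 6 visceral and yolk sac endoderm genes, the endocytic adaptor gene Dab2 fell (−1.15 ± 0.25), in all 7 fits. Of 16 nascent and paraxial mesoderm genes, 4 fell, 2 of them in all 7 fits, and 2 fell without NoDox_d4 replicate 1. Meox1, of somites, stood at 235, 36.2 and 37.6 and 17.8, 19.1 and 15.6 CPM (−2.56 ± 0.59, adjusted p = 0.00898, or −1.08 without NoDox_d4 replicate 1), and Foxc2 fell (−2.25 ± 0.49, or −1.20 without it). Both falls were smaller without the control that stood apart, which also held the highest summed level of the list, 538 CPM against 278 and 276 in the other controls and 278 to 310.0 in D3Dox_d4. Of 12 lateral plate, cardiac and limb genes, 2 rose and 2 fell. The T-box gene Tbx20, of heart and of cranial motor neurons, went from 1.46, 1.02 and 0.692 to 29.4, 38.3 and 38.9 CPM (5.07 ± 0.44, adjusted p = 1.45e-05). The cardiac actin gene Actc1 (−2.49 ± 0.41, or −1.67 without NoDox_d4 replicate 1) and the myogenic cofactor gene Mef2c (−1.41 ± 0.23) fell, and 3 genes rose and 2 fell without NoDox_d4 replicate 1. Of 14 blood and endothelium genes, 2 rose and 2 fell. The rises were Gata2 and the endothelial adhesion gene Pecam1 (1.73 ± 0.42, or 2.40 without NoDox_d4 replicate 1), in all 7 fits, and without that library 3 rose and both falls lost their calls. The medians of the lateral plate and blood lists changed sign, from −0.42 and −0.56 with all libraries to 0.38 and 0.03 without it.

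Markers of other cell types that the cultures could hold were measured too. For scale, 13.4% of all tested genes rose and 10.2% fell with all libraries, and 8.61% and 4.72% in all 7 fits. With all libraries 28.6% of the germ cell genes fell. Trophoblast genes rose and fell at 14.3% each, and feeder genes at 7.14% and 28.6%. Of 7 germ cell genes, Kit (−0.99 ± 0.18) and Ifitm3 (−0.52 ± 0.11) fell in all 7 fits, both also expressed in epiblast, with the list's sum at 216 to 315 CPM in NoDox_d4 and 159.7 to 173 in D3Dox_d4. None of 7 trophoblast genes kept a call in all 7 edgeR fits (1 rose and 1 fell in the fit of all libraries, and 1 and 1 without NoDox_d4 replicate 1), with sums of 49.3 to 194 and 57.2 to 61.5 CPM. Of 14 fibroblast feeder genes, 1 rose and 4 fell. The collagen gene Col1a2 rose, from 49.6, 39.8 and 42.7 to 307, 352 and 369.9 CPM (2.96 ± 0.13, adjusted p = 1.21e-07), and the matrix proteoglycan gene Dcn fell (−2.27 ± 0.54, or −1.36 without NoDox_d4 replicate 1), in all 7 fits. The feeder sum was 530.2 to 1447 CPM in NoDox_d4, highest in replicate 1, and 673 to 883 in D3Dox_d4, and 3 genes rose and 1 fell without replicate 1. The part of these cells in the results above was not tested.

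Hox genes, which mark position along the body axis, depended on 1 library. In NoDox_d4 replicate 1 the 31 Hox and Cdx genes tested summed to 1542 CPM, against 406 and 450 in replicates 2 and 3 and 458 to 623 in D3Dox_d4. With all libraries 2 rose and 1 fell, and the median was −0.80. When it was left out, 11 rose and 1 fell, and the median was 0.64. The direction of the list's median thus changed with that library. Hoxd3 was the member that kept its call in all 7 fits, falling from 15.4, 3.05 and 3.42 to 1.26, 0.848 and 1.15 CPM (−2.74 ± 0.58, adjusted p = 0.00536, or −1.57 without NoDox_d4 replicate 1).

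**Figure D5:**
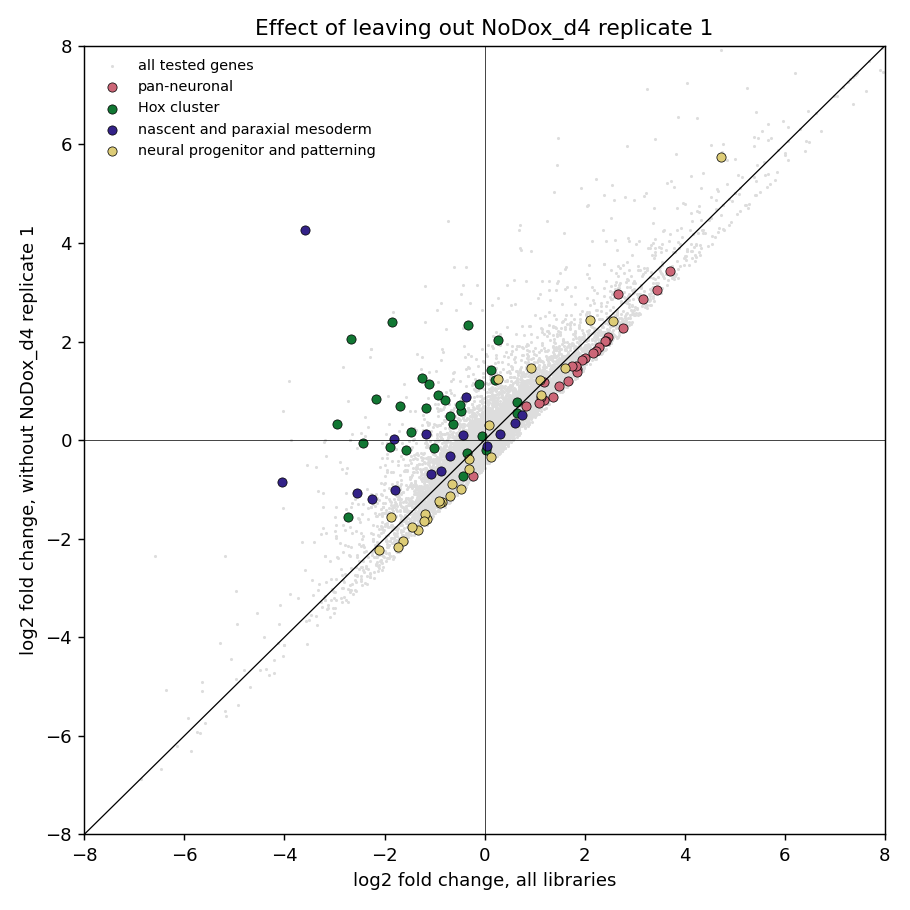
Log2 fold change of each tested gene with all libraries on the x axis and without NoDox_d4 replicate 1 on the y axis, for values within 8 log2 units, with 14 genes outside that range and the line of equal values drawn. Pan-neuronal genes (pink) lie close to or just below the line, while Hox genes (green) and several mesoderm genes (dark blue) lie above it, the Hox median moving from −0.80 to 0.64.

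Matrix and adhesion genes gave calls in both directions, as did all tested genes (13.4% rose and 10.2% fell). Of 32 collagen, laminin and integrin genes, 4 rose and 9 fell, 3 and 5 in all 7 fits, and 6 and 10 without NoDox_d4 replicate 1. Besides Col1a2, Col12a1 (2.66 ± 0.41, or 3.32 without NoDox_d4 replicate 1) and the fibronectin receptor gene Itga5 (0.60 ± 0.12) rose. The basement membrane genes Lama1 (−1.35 ± 0.29) and Col4a6 (−1.02 ± 0.19) fell, as did Itga8 (−1.75 ± 0.41, or −0.96 without NoDox_d4 replicate 1). Of 13 EMT and mesenchyme genes, the matrix protease gene Mmp2 rose in all 7 fits (0.72 ± 0.17), and 4 rose without NoDox_d4 replicate 1. Of 17 epithelial junction genes, 1 rose and 3 fell. The claudin gene Cldn3 rose (1.74 ± 0.27) and Cdh1 and Cldn6 fell in all 7 fits, and the counts were 1 and 2 without NoDox_d4 replicate 1.

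Among the 10 lowest genes besides Shh, Gli1 and Hes3, Igfbp5, which encodes an insulin-like growth factor binding protein, fell from 404, 145 and 199.8 to 13.6, 19.8 and 22.8 CPM (−3.74 ± 0.47, adjusted p = 2.06e-04). Samd3 fell from 5.32, 17 and 9.95 to 0.253, 0.516 and 0.478 CPM (−4.68 ± 0.79, adjusted p = 0.00138), and Vtn, which encodes the adhesive protein vitronectin, from 6.9, 7.68 and 11 to 0.94, 0.885 and 0.836 CPM (−3.26 ± 0.41, adjusted p = 2.11e-04). In all 3 the doxycycline libraries lay below every control, as the naming rule required. The vesicle transport gene Sytl2 fell (−3.20 ± 0.64, or −3.85 without D3Dox_d4 replicate 2). The forkhead gene Foxd1 fell (−3.42 ± 0.79, or −2.07 without NoDox_d4 replicate 1), and Ism1, a secreted inhibitor of Nodal signalling and angiogenesis, likewise (−3.17 ± 0.63, or −1.88 without it). Cd36, a fatty acid receptor gene, fell (−3.46 ± 0.87, or −2.84 without NoDox_d4 replicate 1), a call lost without D3Dox_d4 replicate 1 or 2. Of 14 IGF axis genes, 2 rose (14.3%) and 6 fell (42.9%) with all libraries, against 13.4% and 10.2% of all tested genes. Without NoDox_d4 replicate 1, 3 rose and 3 fell. In all 7 fits, Igfbp5 and the RNA-binding protein gene Igf2bp1 (−0.54 ± 0.09) fell and the receptor gene Igf1r (0.84 ± 0.14) rose.

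Stress and metabolic lists differed in how many of their genes were called. Over all tested genes, 13.4% rose and 10.2% fell. Rises took 42.9% of p53 targets, 17.6% of glycolysis and hypoxia genes and 20% of immediate early and heat shock genes. Falls took 7.69% of mitochondrially encoded genes and 6.67% of immediate early and heat shock genes. Of 14 p53 target genes, 6 rose, 3 of them in all 7 fits, the cytokine gene Gdf15 (2.60 ± 0.65, or 3.28 without NoDox_d4 replicate 2), the death receptor gene Fas (1.78 ± 0.36) and Trp53inp1 (0.76 ± 0.14), and 4 rose and 1 fell without NoDox_d4 replicate 1. None of 16 ATF4 stress response genes passed in edgeR, 0 at an unadjusted p under 0.05 and 0 in DESeq2. However, 1 fell without NoDox_d4 replicate 1, and 9 fell with both NoDox libraries numbered 1 left out. The list summed to 1473, 5915 and 5374 CPM in NoDox_d4 replicates 1 to 3 and to 3853 to 4689 CPM in D3Dox_d4. The 3 of 17 glycolysis and hypoxia genes that rose lost their calls on leaving out a library, and 1 rose without NoDox_d4 replicate 1. Of 13 mitochondrially encoded genes, the complex I gene mt-Nd1 fell in all 7 fits (−0.68 ± 0.16), and 4 fell without NoDox_d4 replicate 1. These transcripts took 2.81%, 5.21% and 3.70% of counts in NoDox_d4 and 3.47%, 3.52% and 3.17% in D3Dox_d4. Of 15 immediate early and heat shock genes, 3 rose and 1 fell. Fos (1.68 ± 0.33) and Jund (0.75 ± 0.15) rose in all 7 fits, and 4 rose and the fall lost its call without NoDox_d4 replicate 1.

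The series also holds a day 2 pair, D1Dox_d2 against NoDox_d2, which shares no library with the day 4 pair. The difference of the effects, day 4 minus day 2, was called in 2336 of 18109 genes (12.9%). Of the 4263 genes called at day 4, 1234 also had a called difference. In 711 the gene rose at day 4 and the difference was above 0, and in 428 it fell and the difference was below 0. Another 81 rose and 14 fell with a difference of the opposite sign. These genes were picked by their day 4 call and the difference contains the day 4 value, so matching signs were favoured in advance. The split therefore does not show that effects were generally larger at day 4. Ptch1 fell (−2.08 ± 0.20) at day 4 and had −0.43 at day 2 (difference −1.65 ± 0.27, edgeR adjusted p = 0.00367). For Gli1 the day 2 value was −0.59 (difference −2.88 ± 0.53, adjusted p = 0.00656) and for Mki67 it was 0.31 (difference −1.40 ± 0.24, adjusted p = 0.00415). The day 2 values of Ptch1 and Gli1 were below 0, and that of Mki67 was above it. Phox2a had a day 2 value of 1.59 and a difference above 0 (2.44 ± 0.63, adjusted p = 0.0278). In these tests the library labelled NoDox_d2 replicate 1, with its Mixl1 signal, stands among the day 2 controls. Without it 5037 differences were called, among them 2320 of the 2336. The edgeR difference for Mixl1 itself was 4.58 (adjusted p = 0.107) with all libraries and −0.53 (adjusted p = 0.213) without it.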

How the data were processed

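Counts of read pairs per gene were deposited by the authors as 1 table of 12 libraries. Per the labels' protocols, paired 150 bp reads were trimmed with Trim Galore. Per the submitters' processing notes they were aligned with STAR, and per the file headers they were counted with featureCounts 2.0.1 against GENCODE M25 (GRCm38), with no strand setting. Reads of overlapping genes on opposite strands can therefore not be told apart, which touches over 10% of the exon bases of 13 named genes: Cdkn1c, Gas1, Gbx2, Hand2, Jund, Nkx6-2, Penk, Pou5f1, Shh, Sox17, Spry1, Syt4 and Tgfb3. GENCODE symbols were found for 55141 of 55487 gene IDs.

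Here, edgeR 4.0.16 in R 4.3.3 (TMM scaling, filterByExpr, quasi-likelihood F-test, 1 coefficient per group over all 12 libraries, 8 residual degrees of freedom) was run on the deposited counts. P-values were adjusted by Benjamini-Hochberg over all tested genes, with 0.05 as threshold. The SE is the log2 fold change over the root of F. Depth is given with the results, and 3 counts serve as the floor of detection. Intervals of count ratios cover counting error only. The code was tested on simulated counts.

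Genes were named by rule: Mixl1, the 10 highest and 10 lowest called genes (higher group mean of 5 CPM or more, libraries of the groups apart, called without NoDox_d4 replicate 1 too), and up to 3 genes in each direction per list called in all 7 fits. Some genes are not reported here. Others are said to lie outside the rule or are named as the only call in a direction, a pathway member that did not pass, or a call lost without a library. The 45 lists (787 of 832 genes tested) and the rule were chosen with earlier results of these data known. Alternatives were 2 other scalings, 2 filters, DESeq2 1.42.0, a replicate block, the 6 libraries alone, robust moderation, removal of mitochondrial genes, and each library left out. Leaving out NoDox_d2 replicate 1 for the day 4 counts was added after the data were seen. Promoters are RefSeq's, on GRCm38.p6.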

Additional observations from a re-analysis of the deposited data

Results flagged for a closer look

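Groups held 3 libraries each, too few for a test of single outlying samples. Of the genes named above, 71 had doxycycline effects that differed between day 4 and day 2 in the edgeR test of the difference itself, at an adjusted p under 0.05 over all 18109 genes. Of these, 69 also passed without the library labelled NoDox_d2 replicate 1 and 65 without NoDox_d4 replicate 1. Values are the day 4 log2 fold change minus the day 2 one, fitted with all 12 libraries. Their sizes without NoDox_d2 replicate 1 are not given here.

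The difference was above 0 in 32 genes: Gal (5.14), Tlx2 (4.48), Gjd2 (4.31), Vip (3.49), Cdh12 (3.31), Hmx2 (2.99), Neurod1 (2.83), Neurod4 (2.74), Pcsk2 (2.73), Tnr (2.69), Dbh (2.62), Myt1l (2.48), Phox2a (2.44), Scg3 (2.39), Cldn3 (2.36), Foxd3 (2.04), Pou3f1 (1.99), Cdkn1c (1.97), Chga (1.96), Celf3 (1.94), Id4 (1.70), Slc18a2 (1.66), Bhlhe22 (1.61), Chrnb4 (1.46), Gbx2 (1.37), Wnt8a (1.08), Fgf13 (1.05), Sox4 (1.02), Sox3 (0.91), Dnmt3b (0.74), Igf1r (0.73) and Cdh10 (0.62). Wnt8a, Sox3 and Dnmt3b of this list fell at day 4, by less than at day 2. For Vip and Tlx2 the fitted differences rest on NoDox_d4 groups with 1 and 2 counts. No size of the difference is read from them, nor from that of Nkx2-9 given next.

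The difference was below 0 in 39 genes, among them 5 of the Hedgehog pathway that fell at day 4 (Shh, Gli1, Ptch1, Gli3 and Smo) and 5 of replication and mitosis (Mki67, Kif23, Cenpf, Tyms and Mcm5): Nkx2-9 (−6.55, fitted on 2 counts over D3Dox_d4), Shh (−5.69), Cd36 (−5.04), Dcn (−4.85), Ism1 (−4.11), Olig2 (−3.91), Igfbp5 (−3.75), Lmx1a (−3.61, fitted on 3 counts), Col12a1 (−3.38), Esrrb (−3.14), Dkk1 (−3.06), Hhip (−3.03), Tlx3 (−2.90), Gli1 (−2.88), Dhrs3 (−2.85), Actc1 (−2.71), Fzd8 (−2.64), Nkx6-2 (−2.62), Ltbp1 (−2.60), Wnt4 (−2.53), Penk (−1.98), Sema3d (−1.89), Ptch1 (−1.65), Lama1 (−1.59), Mki67 (−1.40), Mef2c (−1.35), Rdh10 (−1.32), Gli3 (−1.30), Dkk3 (−1.24), Sema3c (−1.16), Kif23 (−1.16), Cenpf (−1.09), Itga5 (−1.05), Gja1 (−0.99), mt-Nd1 (−0.96), Tyms (−0.93), Notch2 (−0.91), Mcm5 (−0.51) and Smo (−0.51). Hhip, Dkk1, Dkk3, Esrrb, Col12a1, Itga5, Penk and Nkx6-2 of this list rose at day 4, by less than at day 2. Penk and Nkx6-2 had day 2 log2 fold changes of 5.37 and 6.84.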

How the results depend on the processing

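Under the other scalings, filters and moderation, DESeq2, the 6 libraries alone and removal of mitochondrial genes, the day 4 total stayed between 3299 and 5024 against 4263. Without 1 library of the comparison it was 2756 (no D3Dox_d4 replicate 3) to 4286, with 1725 to 2475 genes up and 1031 to 1811 down. The 1098 and 1031 falls without D3Dox_d4 replicates 2 and 3 were the furthest from 1839. With both NoDox libraries numbered 1 left out, 7168 were called, 3843 up and 3325 down. The difference of effects gave 1226 to 5037 calls without 1 library, against 2336. It gave 1489, 1226 and 1247 without D1Dox_d2 replicates 1 to 3, 1460 and 1325 without D3Dox_d4 replicates 2 and 3, 5037, 1376 and 1338 without NoDox_d2 replicates 1 to 3, and 6424 without both libraries numbered 1. The causes of these shifts were not tested.

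Mixl1 kept its direction and call in every edgeR fit, at 8.02 to 8.36 without 1 library of the comparison. DESeq2 gave it no adjusted p. Of 165 other named genes, 151 kept their direction and side of the threshold under every setting that gave a p, and none of the 165 reversed.

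With the replicate number as a block, 4312 genes were called at day 4, 2511 up and 1801 down, 2448 differences were called, Mixl1 had 8.40 (adjusted p = 0.00376), and 1 named gene lost its call. Deviations of same-numbered D3Dox_d4 and NoDox_d4 libraries correlated at −0.0666, −0.0643 and 0.0369. These 3 values, with 1 control library standing apart, cannot decide whether the numbers pair the libraries. In NoDox_d2, too, the library numbered 1 stood apart, correlating at 0.957 and 0.961 with the others, against 0.991 between them. Only number 3 of the D3Dox_d4 libraries correlated best with its own number.

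With 3 libraries a group, small changes can be missed, and calls depend on the spread estimated over all 12 libraries. Genes with under 3 counts in a group have no reliable fold change.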
